A study of Xenopus laevis with 12 samples.

Results

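The libraries compared here were sequenced from RNA of whole Xenopus laevis embryos that carry the same group label and differ in the letter of the sample, B or C. They were 8 of the 12 stage 25 libraries of the series, namely 1 library lettered B and 1 lettered C from each of 4 groups, taken as 4 pairs. All embryos were wild type, were reared at 14 °C and then held at 18 °C from stage 12.5 to stage 25, and gave libraries of 15 pooled embryos each. The untreated groups held 300 or 100 embryos and received no drug, and the other groups of 300 or 100 embryos received 90 µM thioridazine, a dopamine receptor antagonist, over the same stages. The letters correspond to the sample numbers 2 and 3 of the labels, and what they mark (a clutch, a dish, a day or a preparation) is not given in the sources used here. Repeats carried out in different weeks and an adjustment for batch are mentioned in the study's methods, which tie neither to the letters. All p-values therefore refer to the spread between the sequenced samples, which may be technical.

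Xenopus laevis has an allotetraploid genome, in which most genes are kept as homeologs on a long (.L) and a short (.S) chromosome. These homeologs arose from different ancestral species, and .L and .S do not refer to the length of the gene. At the tailbud stage the neural tube has closed, somitic muscle, cement gland and ciliated epidermis are differentiating, and the large endodermal cells still hold yolk and remnants of maternal RNA. A library of whole embryos averages over these tissues, so fewer cells of a type and less RNA per cell cannot be told apart.

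The B libraries held 3550845 to 7822395 expected counts and the C libraries 3497198 to 5496905. The untreated pairs differed less in total than the thioridazine pairs. Their totals were 6720632 in B and 5496905 in C for groups of 300, and 3550845 and 3701983 for groups of 100. In the thioridazine pairs the C library was the smaller, at 7379636 against 3497198 and 7822395 against 3639288. The most abundant transcript was ccdc50.L_1, at up to 4.94% of the counts of a C library, except in the B libraries of both groups of 100, where it was nemf.L. All 48 measured copies of the tissue markers checked (among them sox2, myod1, foxj1, tbxt and rax) had counts in all 8 libraries, with a lowest level of 2.69 CPM, and 5 of these copies differed between the letters. CPM (1e+06 times the count over the library total) is given after TMM scaling, a correction for library composition, and levels are listed throughout in the order untreated 300, untreated 100, thioridazine 300 and thioridazine 100.

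Between B and C libraries, 1398 of 21731 tested genes passed an adjusted p of 0.05 (6.43%). Of these, 470 were higher in B (2.16%) and 928 were lower in B (4.27%), and 4901 genes had an unadjusted p under 0.05 where 1087 would be expected by chance. The difference went the same way in 4 of 4 pairs for 460 of the higher genes and 878 of the lower genes. The higher genes had a median log2 fold change of 0.60 and the lower genes one of -0.91, beside a median of 0.00 over all tested genes. Fold changes of at least 4 were seen for 33 higher and 85 lower genes. Of the called genes, 23 higher and 80 lower ones would have missed the filter of 1.8 CPM in 3 of 12 libraries without the libraries of the letter in which they were high, so the filter itself favoured a difference in them. They made up 16 of the 33 and 39 of the 85. The 4 B levels lay entirely above or below the 4 C levels for 1790 genes (8.24%), 904 of them higher (4.16%) and 886 lower (4.08%) in B.

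**Figure D1:**
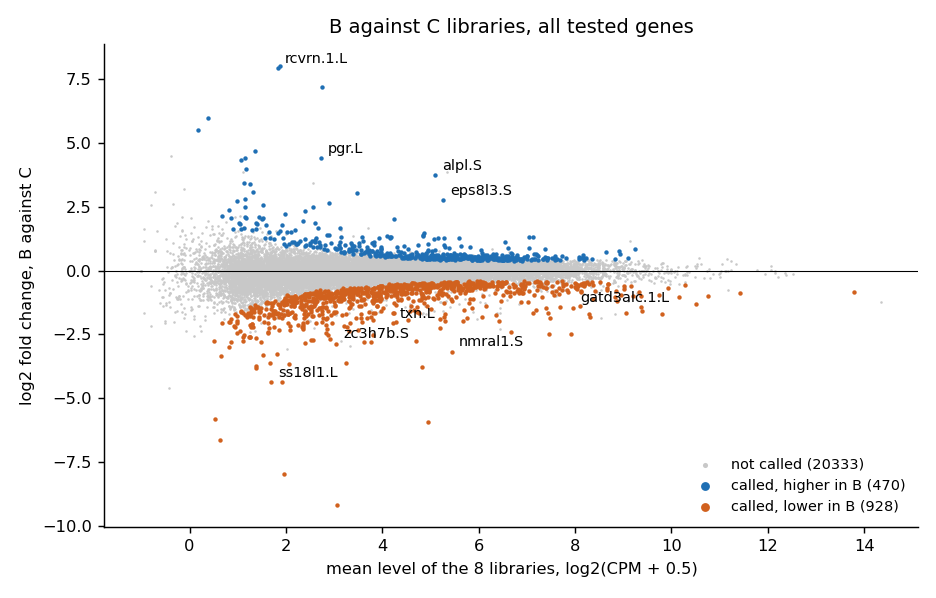
Log2 fold change of B against C libraries (y axis) against the mean level of the 8 libraries as log2(CPM + 0.5) (x axis) for 21731 genes, each point 1 gene. The 470 genes called higher in B lie above 0 and the 928 called lower lie below it, and the genes labelled are among those described in the text.

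Letter accounted for 29.6% of the variance of all genes over the 8 libraries, group for 41.7% and the rest for 28.6%. Among the 500 most variable genes letter accounted for 41.7%, group for 35.3% and the rest for 23.0%. Group has more levels than letter and so takes a larger share even without an effect. The larger share of group over all genes therefore does not rank group above letter. The first principal component of the 500 most variable genes held 45.1% of their variance, and 88.9% of its scores' variance lay between the letters. Tested separately, the 2 untreated pairs gave 589 genes and the 2 thioridazine pairs 970 genes, with 286 genes in both (48.6% of the former and 29.5% of the latter). The direction agreed for 282 of the 286. Among the 589 genes called in untreated pairs, 95.8% had the same sign in the thioridazine pairs, beside 66.3% of all tested genes. Each of these fits rests on 2 pairs, which leaves very few libraries to estimate the spread. In nmral1.S, log2 fold changes of -3.25 (untreated) and -3.11 (thioridazine) had edgeR adjusted p = 3.95e-28 and 6.65e-06. Numbers called in the untreated and in the thioridazine pairs are therefore not comparable as sizes of difference. With the thioridazine 100 pair left out 560 genes were called, with the thioridazine 300 pair left out 644, and with the group term left out 361.

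The gene with the smallest p among named genes higher in B was alpl.S, a copy of tissue-nonspecific alkaline phosphatase, an enzyme of bone mineralization. Its level was 50.9, 70.8, 59.8 and 68.1 CPM in the B libraries and 2.50, 9.14, 5.15 and 2.66 CPM in the C libraries (log2 fold change 3.75 ± 0.22 (SE), edgeR adjusted p = 1.12e-07). Every B level was at least several times the highest C level, and the A libraries of the same groups lay between, at 29.4 to 43.2 CPM. The partner copy alpl.L did not pass the test, with 117 to 155 CPM in B against 124 to 221 in C (-0.31 ± 0.14, edgeR adjusted p = 0.181).

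Copies of other enzymes and signalling proteins showed the same separation. Transcripts of eps8l3.S, a member of the EPS8 family of actin regulators, were at 62.6, 58.7, 68.9 and 71.2 CPM in the B libraries and 5.53, 13.997, 8.79 and 11.2 CPM in the C libraries (log2 fold change 2.77 ± 0.19 (SE), edgeR adjusted p = 2.21e-07). The progesterone receptor gene pgr.L was at 9.33, 11.6, 11.5 and 14.1 CPM in the B libraries and 0.357, 0.571, 0.909 and 0.295 CPM in the C libraries (log2 fold change 4.40 ± 0.34 (SE), edgeR adjusted p = 2.41e-07). These C levels of pgr.L correspond to 1 to 3 counts a library, and no C library reached the lowest B library. Thimet oligopeptidase, thop1.L, which cleaves neuropeptides, was at 21.7, 18.5, 19.5 and 16.5 CPM in the B libraries and 1.78, 3.43, 2.73 and 1.48 CPM in the C libraries (log2 fold change 3.05 ± 0.24 (SE), edgeR adjusted p = 2.64e-07). Its partner thop1.S was at 25.6 to 33.7 CPM in B against 21.8 to 30.3 in C (0.13 ± 0.13, edgeR adjusted p = 0.615).

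Smaller differences with little spread were seen in xdh.S, elk4.S and rin3.S. Xanthine dehydrogenase, xdh.S, an enzyme of purine breakdown that was listed among pigment cell genes, was at 46.2, 34.7, 43.1 and 37.7 CPM in the B libraries and 14.8, 14.6, 16.98 and 16.2 CPM in the C libraries (log2 fold change 1.37 ± 0.14 (SE), edgeR adjusted p = 6.41e-06). It was the only called copy of the 22 in that list, of which 5 lay above 0 and 17 below 0 (median -0.32). The ETS factor elk4.S, a partner of serum response factor, was at 46.2, 47.4, 54.9 and 52.5 CPM in the B libraries and 22.3, 19.4, 22.4 and 17.7 CPM in the C libraries (log2 fold change 1.28 ± 0.14 (SE), edgeR adjusted p = 8.55e-06). Its partner elk4.L was at 9.54 to 12.04 CPM in B against 10.03 to 10.9 in C, so the groups overlapped for that copy (0.06 ± 0.18, edgeR adjusted p = 0.869). The Rab5 exchange factor rin3.S was at 26.9, 22.5, 25.2 and 24.9 CPM in the B libraries and 11.1, 7.71, 10.9 and 10.3 CPM in the C libraries (log2 fold change 1.30 ± 0.16 (SE), edgeR adjusted p = 4.09e-05). Its partner rin3.L had a log2 fold change of 0.11 ± 0.17, edgeR adjusted p = 0.744.

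The DNA glycosylase mpg.L, which removes alkylated bases, was at 7.54 to 10.7 CPM in B against 0.885 to 2.57 in C (2.51 ± 0.28, edgeR adjusted p = 1.99e-05). Transcripts of retn.2.L, of the resistin family, were at 6.41 to 17.9 CPM in B against 0.892 to 2.86 in C (2.65 ± 0.31, edgeR adjusted p = 3.18e-05). Large differences were also seen at low levels. Troponin C of slow and cardiac muscle, tnnc1.L, was at 2.15 to 4.05 CPM in B against 0 to 0.303 in C. The membrane protein gene tmem255b.S was at 2.95 to 4.34 CPM in B against 0 to 0.535 in C. The homeobox gene cux2.S was at 2.51 to 3.49 CPM in B against 0 to 0.892 in C. Each of these had no overlap between the letters, and tnnc1.L and cux2.S reached the filter only with the B libraries. The partner copies tnnc1.S and cux2.L had log2 fold changes of -0.12 ± 0.11, edgeR adjusted p = 0.579 and -0.33 ± 0.47, edgeR adjusted p = 0.722.

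For 4 genes no count was recorded in any C library while every B library had at least 3. Recoverin, rcvrn.1.L, a calcium sensor of photoreceptors, had 28, 31, 26 and 62 counts in the B libraries and 0 in all C libraries, which is at least 7.70-fold higher in B against a floor of 3 counts a library. The A libraries held 0 to 16 counts of it. LOC121400732 had 23 to 57 counts in B, at least 8.06-fold above the floor, with 2 to 8 counts in A. LOC121394522 had 5 to 19 counts in B, at least 2.04-fold above the floor, and 44 to 84 counts in A. The fourth, ocm4.8.L, an oncomodulin-like gene by its symbol, had 3 counts in each B library and 7 to 40 in A, which is too low in B for a fold. Of these genes, rcvrn.1.L and LOC121400732 reached the filter only with their B libraries, so the filter itself favoured a difference in them. The rest of these genes passed it through their B or A libraries. The reverse, with no count in B and at least 3 in each C library, was seen in 0 genes. Among genes without a symbol, the lncRNA LOC108708006 had 15.05, 11.8, 12.35 and 10.6 CPM in B and 0 to 0.178 in C (edgeR adjusted p = 4.70e-08), and LOC108700229 had 33.8 to 47.3 CPM in B against 13.9 to 17.6 in C (1.47 ± 0.14, edgeR adjusted p = 3.93e-06).

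In the other direction the smallest p was that of nmral1.S, an NmrA-like protein that senses NADPH. Its level was 4.52, 8.96, 10.6 and 11.1 CPM in the B libraries and 55.3, 65.1, 75.8 and 113 CPM in the C libraries (log2 fold change -3.17 ± 0.16 (SE), edgeR adjusted p = 8.22e-10). The highest B library lay well below the lowest C library in this gene. The partner nmral1.L was also lower in B, at 6.18 to 8.96 CPM in B against 16.9 to 33.9 in C (-1.59 ± 0.18, edgeR adjusted p = 2.43e-05).

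Transcripts of stoml3.L, a stomatin-like membrane protein known in mouse for mechanosensation, were at 6.17, 5.78, 7.65 and 10.2 CPM in the B libraries and 20.9, 23.1, 40.0 and 37.8 CPM in the C libraries (log2 fold change -2.02 ± 0.16 (SE), edgeR adjusted p = 3.96e-07). The RNA-binding zinc finger gene zc3h7b.S was at 1.96, 1.45, 2.42 and 1.51 CPM in the B libraries and 10.9, 13.4, 17.6 and 12.39 CPM in the C libraries (log2 fold change -2.86 ± 0.24 (SE), edgeR adjusted p = 5.11e-07). Its copy zc3h7b.L was at 17.3 to 19.7 CPM in B against 12.12 to 18.6 in C (0.17 ± 0.16, edgeR adjusted p = 0.568). The sorting nexin gene snx5.S was at 4.97, 6.36, 5.24 and 6.41 CPM in the B libraries and 15.5, 22.6, 19.4 and 24.2 CPM in the C libraries (log2 fold change -1.83 ± 0.18 (SE), edgeR adjusted p = 3.78e-06). Its copy snx5.L was at 7.12 to 11.3 CPM in B against 7.28 to 9.44 in C (0.02 ± 0.20, edgeR adjusted p = 0.964). In these genes the letters separated fully in the copy named first and overlapped in the partner copies zc3h7b.L and snx5.L.

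Glutathione S-transferase pi, gstp1.L, which conjugates glutathione to electrophiles, was at 54.2, 93.6, 98.4 and 119 CPM in the B libraries and 203, 167, 276 and 338 CPM in the C libraries (log2 fold change -1.45 ± 0.15 (SE), edgeR adjusted p = 9.60e-06). An abundant gene, gatd3alc.1.L, was at 69.2, 138, 142 and 183 CPM in the B libraries and 228, 251, 483 and 480.3 CPM in the C libraries (log2 fold change -1.45 ± 0.15 (SE), edgeR adjusted p = 6.23e-06). Both separated fully by letter, and the A libraries lay at 224 to 419 CPM for gstp1.L and at 69.1 to 266 CPM for gatd3alc.1.L. The catalytic subunit of signal peptidase, sec11c.L, was at 4.83 to 5.72 CPM in B against 15.6 to 25.5 in C. The levels of ccdc134.S were 0.867 to 2.01 CPM in B against 7.38 to 10.5 in C, and those of the galectin gene lgals9c.S were 6.47 to 23.1 CPM in B against 38.5 to 88.5 in C.

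An alpha-kinase gene of muscle, alpk3.S, was at 47.7, 20.2, 39.5 and 36.1 CPM in the B libraries and 107, 47.4, 81.5 and 70.2 CPM in the C libraries (-1.10 ± 0.12, edgeR adjusted p = 1.22e-05). In this gene the letters overlapped, and the B level was below the C level within each of the 4 groups. The partner copies sec11c.S, ccdc134.L, lgals9c.L and alpk3.L had log2 fold changes of -0.42 ± 0.15, -0.08 ± 0.19, -0.21 ± 0.39 and -0.05 ± 0.25, none of them past the threshold.

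The largest folds among named genes lower in B were in genes near the detection limit in B. Of the genes described here and in the next paragraph, ss18l1.L, dpf1.S, tmem229b.L, cdk18.L and nckap1l.L reached the filter only with the C libraries, so their levels are a description. ss18l1.L and dpf1.S are known as subunits of the neuronal BAF chromatin remodelling complex. ss18l1.L was at 0, 0.578, 0 and 0.503 CPM in the B libraries and 4.10, 5.14, 4.55 and 6.79 CPM in the C libraries. dpf1.S was at 0.151, 0, 0.403 and 0.377 CPM in the B libraries and 3.75, 4.86, 3.33 and 3.84 CPM in the C libraries. The procollagen peptidase adamts14.L was at 0.289 to 2.71 CPM in B against 12.39 to 20.6 in C (-3.62 ± 0.37, edgeR adjusted p = 1.51e-04), with adamts14.S at -0.34 ± 0.59. The peroxisomal import factor pex14.S was at 0.289 to 0.880 CPM in B against 4.86 to 6.196 in C (-3.25 ± 0.37, edgeR adjusted p = 2.18e-05), with pex14.L at -0.08 ± 0.15.

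Further low-level genes were tmem229b.L (0.134 to 1.16 CPM in B against 2.43 to 5.35 in C), cdk18.L, a cyclin-dependent kinase (0 to 0.377 CPM in B against 0.857 to 2.95 in C), and nckap1l.L, a WAVE complex subunit of blood cells (0 to 0.578 CPM in B against 0.590 to 2.43 in C). The letters did not overlap in tmem229b.L and cdk18.L, nor in nckap1l.L, where the gap was narrow. Without a symbol, LOC108701722 was at 1.66 to 8.96 CPM in B against 31.9 to 67.1 in C (-3.78 ± 0.20, edgeR adjusted p = 4.67e-09). The transcribed pseudogene LOC121396367 was at 32.1 to 41.0 CPM in B against 95.3 to 171 in C (-1.96 ± 0.15, edgeR adjusted p = 2.41e-07).

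Partner copies were called in some cases. Of 1398 called genes, 558 had a partner copy that was also tested, and in 82 of these the partner was called in the same direction, in 6 in the opposite one and in 470 it was not called (84.2%), where 6.43% of all tested genes were called. Whether the copies of a pair differed from each other was not tested. The log2 fold changes of 5586 pairs of copies correlated at r = 0.29 across genes, which are not independent replicates and share the libraries. Of the 19 genes with a fold of at least 4 and a tested partner, 13 had a partner whose log2 fold change was within 0.5 of 0. Copies called in opposite directions were those of acta1, skeletal muscle actin, each of which reached the filter only with the letter in which it was high (acta1.S 1.82 ± 0.43 and acta1.L -1.26 ± 0.36), gnaz, a G protein alpha subunit (gnaz.S 0.79 ± 0.23 and gnaz.L -0.57 ± 0.15), and rtbdn, retbindin (rtbdn.L 1.01 ± 0.20 and rtbdn.S -0.88 ± 0.19). The .L copies were called in 5.27% of 9923 tested genes and the .S copies in 5.22% of 7235. Reads that match both copies are shared out by the counting, so the split between copies carries an uncertainty that these tables do not show.

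**Figure D2:**
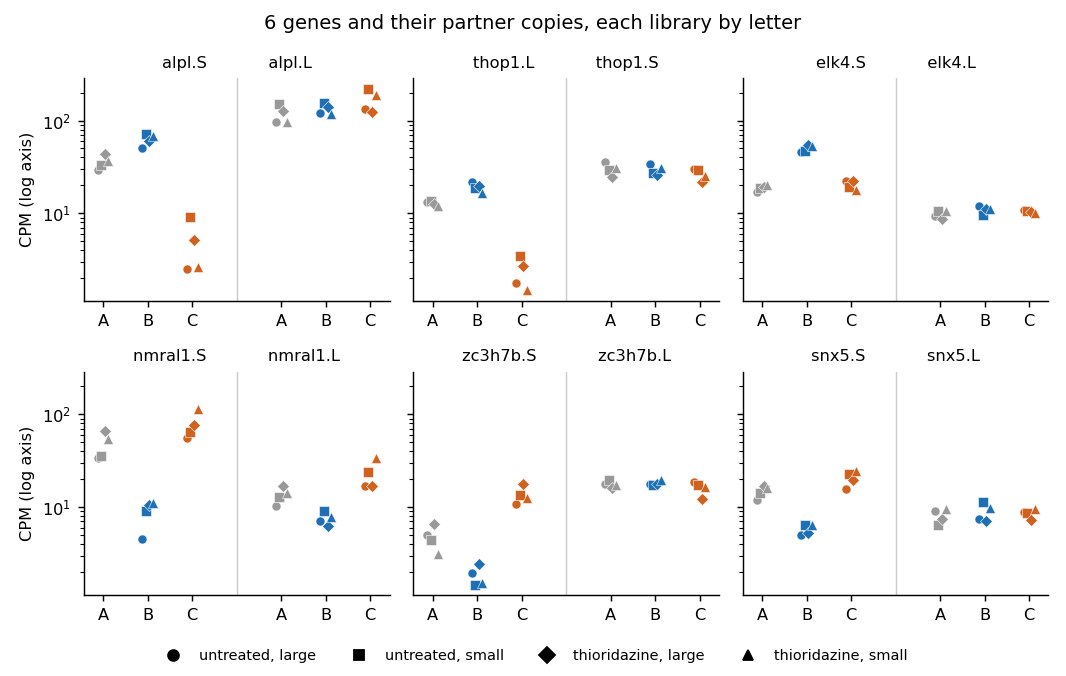
Levels in CPM on a log axis of 6 genes (left of each grey line) and their partner copies (right) in the libraries lettered A, B and C, with the 4 groups as symbols and each point 1 library. In alpl.S, thop1.L and elk4.S every B point is above every C point, and in nmral1.S, zc3h7b.S and snx5.S every B point is below every C point, while the partner copies other than nmral1.L overlap.

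Among 2794 neighbours of called genes in the gene order, 7.52% were called in the same direction and 2.79% in the opposite one. Of all tested genes 2.16% were called higher and 4.27% lower, which makes 6.43% in either direction. There were 12 runs of at least 3 adjacent tested genes called in the same direction, 10 of them lower in B, and the longest held 4 genes. The runs of 4 genes held LOC121400204, LOC121400205 and LOC121400206, and LOC121397404, which reached the filter only with the C libraries. So did rpain.S, LOC108719455 and LOC121396097 in other runs lower in B. The filter itself favoured a difference in these genes, so the run counts rest partly on it. The runs included a cluster of ventral homeobox genes, ventx3.2.S, ventx1.2.S and ventx2.2.S, lower in B, and a run of aldh3a2.L, unc45b.L and slfn13.L, which were higher in B.

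The A libraries, which did not enter these tests, were set beside the called genes for comparison. For genes higher in B, the mean of the 4 A libraries lay between the B and C means in 244 of 470, beyond B in 95 and beyond C in 131. For genes lower in B, it lay between in 444 of 928, beyond B in 311 and beyond C in 173. The A mean was nearer C in 267 of the higher genes and nearer B in 575 of the lower genes.

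Members of gene lists are set below beside the shares over all tested genes, 2.16% higher and 4.27% lower in B. In the untreated pairs alone 227 of the 21731 tested genes were higher and 362 lower. In the thioridazine pairs alone 240 were higher and 730 lower. Of 38 measured copies of endoderm, liver and pancreas genes, 10 were lower (26.3%) and 0 higher, 28 were not called and 7 lay above 0. Their median log2 fold change was -0.41, and the lower copy serpina1.S reached the filter only with the C libraries. Transferrin, tf.L, an iron carrier of plasma, was at 44.3, 69.9, 47.8 and 47.1 CPM in the B libraries and 94.6, 157, 80.6 and 155 CPM in the C libraries (log2 fold change -1.20 ± 0.14 (SE), edgeR adjusted p = 3.17e-05). The endodermal regulator sox17a.L was at 36.1, 67.3, 53.8 and 46.9 CPM in the B libraries and 46.2, 117, 67.3 and 113 CPM in the C libraries (log2 fold change -0.70 ± 0.15 (SE), edgeR adjusted p = 0.00888). Its copy sox17a.S had a log2 fold change of -0.60 ± 0.13, edgeR adjusted p = 0.0116. tf.L separated fully by letter, whereas sox17a.L overlapped between letters and was lower in B within each group.

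Other endodermal members that passed the test were the apolipoprotein gene apoc1.L (-0.67 ± 0.12, edgeR adjusted p = 0.00233), the zinc finger factor gata5.L (-0.68 ± 0.15, edgeR adjusted p = 0.00996), the nuclear receptor nr5a2.L (-0.75), the caudal homeobox gene cdx1.L (-0.87) and darmin.L, a peptidase of the gut (-0.80). The list's median difference was -0.31, -0.25, -0.18 and -0.75 in the pairs, in the order given above. In the 2 untreated pairs alone 6 members were lower and 0 higher, and with any 1 pair left out 3 to 9 were lower, the fewest without the thioridazine 100 pair.

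Of 24 copies of maternal and germ plasm genes, 6 were lower (25.0%) and 0 higher, 18 were not called and 5 lay above 0, with a median of -0.84. The oocyte nucleoplasmin npm2.L was at 4.97, 6.65, 6.18 and 4.40 CPM in the B libraries and 6.96, 14.3, 17.3 and 17.4 CPM in the C libraries (log2 fold change -1.31 ± 0.23 (SE), edgeR adjusted p = 0.00193). The germ plasm repressor of translation nanos1.L was at 1.35, 4.05, 3.09 and 1.89 CPM in the B libraries and 2.85, 16.9, 4.55 and 12.7 CPM in the C libraries (log2 fold change -1.72 ± 0.32 (SE), edgeR adjusted p = 0.00349). In npm2.L the letters did not overlap and the untreated 300 pair differed least, while in nanos1.L the C library of that group lay within the range of the B libraries.

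The others were velo1.L, a Balbiani body protein (-1.23 ± 0.31, edgeR adjusted p = 0.0260), the egg coat gene zp4.L (-0.94 ± 0.25, edgeR adjusted p = 0.0279), the oocyte kinase wee2.L (-1.31) and cpeb1.L, which controls polyadenylation of maternal mRNA and reached the filter only with the C libraries (-1.62). The median difference of these genes was -0.22, -0.49, -0.16 and -1.34 in the pairs, with the largest difference in the thioridazine 100 pair. Their summed level was 307, 411, 353 and 277 CPM in the B libraries and 324, 663, 368 and 607 CPM in the C libraries. The 4 libraries with the lowest totals held the 4 highest sums here too, and the part of the library total was not tested. With any 1 pair left out 2 to 9 members were lower, the fewest without the thioridazine 100 pair, and 4 were lower in the untreated pairs alone.

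Genes of gastrula and early neurula patterning went both ways, with 14 of 77 copies lower, 5 higher and a median of -0.21. The secreted Wnt inhibitor frzb.S was at 1.81, 3.47, 2.15 and 1.51 CPM in the B libraries and 4.28, 9.71, 6.06 and 8.26 CPM in the C libraries (log2 fold change -1.68 ± 0.28 (SE), edgeR adjusted p = 0.00121). The other copy, frzb.L, had a log2 fold change of 0.02 ± 0.18, edgeR adjusted p = 0.957. Of 10 copies of the ventral homeobox genes 6 were lower and all 10 had a log2 fold change below 0. The called copies were ventx3.2.S at -1.06 ± 0.19, edgeR adjusted p = 0.00318, ventx3.2.L at -0.73, ventx1.2.S at -0.57, ventx1.2.L at -0.61, ventx2.1.S at -0.44 and ventx2.2.S at -0.46. These factors act downstream of BMP in ventral cells. In ventx3.2.S the levels were 9.78, 18.21, 13.8 and 14.8 CPM in the B libraries and 11.4, 39.4, 27.0 and 47.5 CPM in the C libraries, and the letters overlapped because of the untreated 300 pair. The notch target hes5.10.S (-1.16 ± 0.22, edgeR adjusted p = 0.00361), the floor plate and notochord factor foxa4.S (-0.76 ± 0.15, edgeR adjusted p = 0.00625) and szl.L, a BMP pathway inhibitor (-0.49 ± 0.14, edgeR adjusted p = 0.0382), were also lower.

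Higher members of the same list were tbx6, a T-box factor of paraxial mesoderm, in both copies (tbx6.S 0.60 ± 0.15, edgeR adjusted p = 0.0185, tbx6.L 0.47 ± 0.13, edgeR adjusted p = 0.0368), the neural factor sox3 in both copies (sox3.L 0.48, sox3.S 0.46) and zic1.S (0.56). tbx6.L was at 157, 109.8, 151 and 129.99 CPM in the B libraries and 107, 112, 93.4 and 80.8 CPM in the C libraries. The letters overlapped in this gene through the untreated 100 pair, which was at about the same level in both libraries. With any 1 pair left out 4 to 16 of the list were lower and 0 to 6 higher. Of its called members, sox17a.L, sox17a.S and cdx1.L are also counted in the endoderm list. Likewise sox3.L, sox3.S, zic1.S and hes5.10.S are also counted in the neural progenitor list.

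Neural genes tended to lie above 0, with few past the test. Of 67 copies of neural progenitor genes 52 had a log2 fold change above 0, beside 49.6% of all tested genes. In this list 5 copies were higher (7.46%) and 1 lower (1.49%), with a median of 0.28. The motor neuron and oligodendrocyte factor olig2.L was at 11.3, 6.07, 8.06 and 6.41 CPM in the B libraries and 8.38, 1.71, 1.82 and 1.48 CPM in the C libraries (log2 fold change 1.29 ± 0.30 (SE), edgeR adjusted p = 0.0148). The SoxB1 factor sox3.L, which keeps neural progenitors undifferentiated, was at 127, 82.1, 125 and 101 CPM in the B libraries and 113, 65.7, 67.9 and 67.0 CPM in the C libraries (log2 fold change 0.48 ± 0.13 (SE), edgeR adjusted p = 0.0326). Both overlapped between letters through the C library of untreated groups of 300, which lay within the range of the B libraries.

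Of 44 copies of genes of differentiating neurons 4 were higher (9.09%) and 1 lower (2.27%), with a median of 0.24. Proneural neurog1.L was at 7.38, 4.91, 11.3 and 7.54 CPM in the B libraries and 4.46, 2.29, 3.94 and 2.95 CPM in the C libraries (log2 fold change 1.14 ± 0.25 (SE), edgeR adjusted p = 0.00943). The others were ebf2.S (0.90 ± 0.20, edgeR adjusted p = 0.0114), the RNA-binding neuronal marker elavl3.L (0.98 ± 0.22, edgeR adjusted p = 0.0178) and neurod4.L (0.997). Neurofilament light chain, nefl.L, went the other way at 1.66, 1.45, 1.75 and 0.629 CPM in the B libraries and 5.71, 13.4, 6.97 and 11.8 CPM in the C libraries (log2 fold change -2.70 ± 0.34 (SE), edgeR adjusted p = 9.83e-05). In the untreated pairs alone 0 neural progenitor genes and 0 genes of differentiating neurons were higher, against 6 and 5 in the thioridazine pairs, with pair medians of -0.05, 0.20, 0.36 and 0.59 for progenitors.

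**Figure D3:**
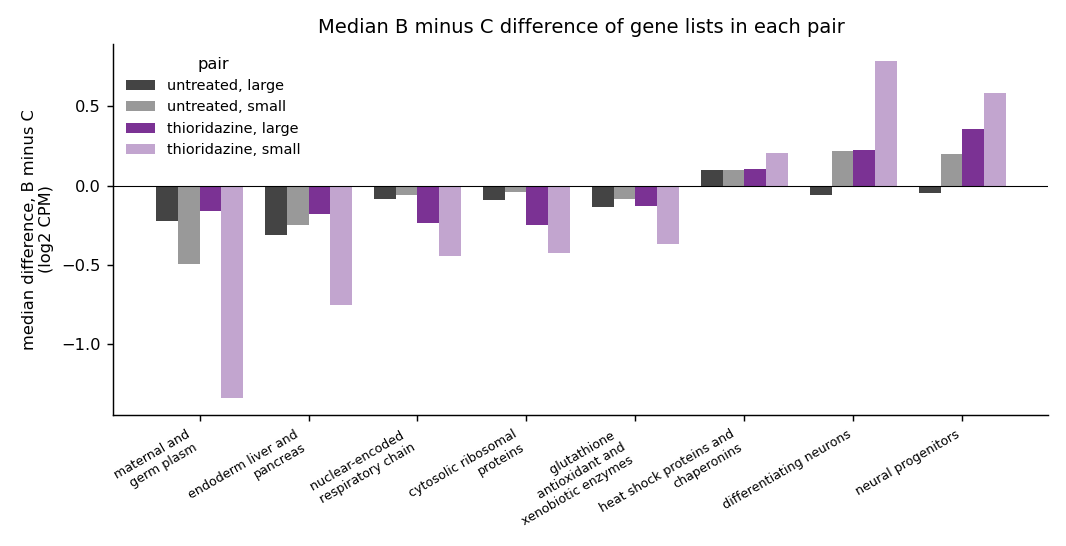
Median B minus C difference in log2 CPM of the measured members of 8 gene lists (bars), 1 bar for each of the 4 pairs. The maternal and germ plasm list runs from -0.163 to -1.34 with the thioridazine 100 pair lowest, and the neural progenitor list from -0.0464 to 0.586.

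Among 62 skeletal muscle copies, 6 were higher (9.68%) and 2 lower (3.23%), beside 2.16% and 4.27% of all tested genes. The higher copies tnnc1.L and acta1.S and both lower copies, ampd1.S and acta1.L, reached the filter only with the letter in which they were high. The filter itself favoured a difference in them, so these shares rest partly on it. Muscle glycogen phosphorylase was higher in B in both copies, with pygm.S at 594, 328, 599 and 462 CPM in the B libraries and 409, 253, 313 and 221 CPM in the C libraries (log2 fold change 0.72 ± 0.13 (SE), edgeR adjusted p = 0.00284) and pygm.L at 0.65 ± 0.14 on the log2 scale. The muscle AMP deaminase copy ampd1.S was lower in B, at 0.251 to 0.867 CPM in B against 2.12 to 3.14 in C and reached the filter only with the C libraries, while ampd1.L had a log2 fold change of 1.58 ± 0.57, edgeR adjusted p = 0.113. Both mef2d copies, of a muscle transcription factor, were higher (mef2d.L 0.46, mef2d.S 0.43). In the untreated pairs alone 2 muscle copies were higher and 2 lower.

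In several other tissue lists 1 member was called in each direction. This was 1.45% of collagen and matrix copies, 1.75% of neural crest, 4.55% of heart and 2.38% of blood copies each way. Of all tested genes 2.16% were higher and 4.27% lower. Of 69 collagen and extracellular matrix copies, periostin, postn.S, was higher at 31.2 to 48.0 CPM in B against 12.7 to 25.3 in C (1.04 ± 0.16, edgeR adjusted p = 4.86e-04), with no overlap between the letters, and decorin, dcn.L, was lower (-1.71 ± 0.49, edgeR adjusted p = 0.0443). Of 57 neural crest and pharyngeal arch copies, the crest factor pax3.L was higher (0.54 ± 0.13, edgeR adjusted p = 0.0231) and the complement gene c3.L lower (-0.43 ± 0.13, edgeR adjusted p = 0.0489). Of 22 heart copies, the T-box factor tbx20.L was higher (0.63 ± 0.17, edgeR adjusted p = 0.0319) and gata5.L, also in the endoderm list, was lower. Of 42 blood and endothelium copies, the blood factor tal1.S was higher (0.64 ± 0.18, edgeR adjusted p = 0.0409) and the globin gene hba-l5.L lower (-0.66 ± 0.19, edgeR adjusted p = 0.0444). The photoreceptor factor crx.L was the called member of 23 eye and lens copies (4.35%), higher in B (0.84 ± 0.17, edgeR adjusted p = 0.00638).

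Of 71 multiciliated cell copies 3 were lower in B (4.23%, beside 4.27% of all tested genes) and 0 higher, and 17 lay above 0. They were tekt2.S, a tektin of the axoneme (-0.57 ± 0.14, edgeR adjusted p = 0.0228), ift57.S, of intraflagellar transport (-0.55 ± 0.14, edgeR adjusted p = 0.0298), and spef1.S, of the axonemal central apparatus (-1.13 ± 0.33, edgeR adjusted p = 0.0489). The desmosomal cadherin dsg2.S (-0.84 ± 0.17, edgeR adjusted p = 0.00543) was the called member of 71 epidermal and keratin copies (1.41%).

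Of 131 copies of cytosolic ribosomal proteins 19 were lower in B (14.5%) and 0 higher, 112 were not called and 4 lay above 0 (median -0.21). rpl15.L, of the large subunit, was at 172, 418, 199 and 212 CPM in the B libraries and 253, 567, 323 and 586 CPM in the C libraries (log2 fold change -0.80 ± 0.15 (SE), edgeR adjusted p = 0.00506). rpl11.S (-0.70 ± 0.15, edgeR adjusted p = 0.0114), rps15a.S (-0.68 ± 0.15, edgeR adjusted p = 0.0123) and rpl37.S (-0.69 ± 0.15, edgeR adjusted p = 0.0132) were close to it. Within each letter the untreated 100 library of rpl15.L was far above the untreated 300 library, and the letters separated only within pairs.

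Of 115 copies of nuclear-encoded respiratory chain genes 15 were lower and 0 higher (median -0.24). The complex I subunit ndufb1.S was at 3.46, 13.01, 3.89 and 5.03 CPM in the B libraries and 5.53, 28.9, 19.1 and 22.1 CPM in the C libraries (log2 fold change -1.62 ± 0.24 (SE), edgeR adjusted p = 5.45e-04). Other complex I subunits were ndufa13.L (-0.90 ± 0.14, edgeR adjusted p = 5.50e-04), ndufb7.L (-1.13 ± 0.20, edgeR adjusted p = 0.00196) and ndufs6.L (-1.41 ± 0.28, edgeR adjusted p = 0.00582), and uqcrh.S of complex III had a log2 fold change of -1.63. The 4 complex I subunits named here differed least in the untreated 300 pair, and the letters overlapped in all of them but ndufs6.L.

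In the untreated pairs alone 3 of 131 ribosomal protein copies and 3 of 115 respiratory chain copies were lower, beside 362 of all 21731 tested genes. In the thioridazine pairs 27 and 14 were lower, beside 730 of all tested genes. Pair medians were -0.09, -0.04, -0.25 and -0.43 for ribosomal proteins and -0.08, -0.06, -0.24 and -0.45 for the respiratory chain. With any 1 pair left out 3 to 27 ribosomal protein copies were lower, the fewest without the thioridazine 300 pair, and 5 to 20 respiratory chain copies, the fewest without the thioridazine 100 pair. Protein-coding genes with spans like those of the members had a median of -0.08 for both lists. Summed ribosomal protein levels were 21930, 34080, 21840 and 24180 CPM in B and 23780, 35950, 27270 and 35140 in C. Summed respiratory chain levels were 3187, 4455, 3065 and 3376 CPM in B and 3374, 4687, 3417 and 4586 in C. In both lists the 4 of these 8 libraries with the lowest totals held the 4 highest sums. The part of the library total was not tested.

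Of 85 copies of ribosome biogenesis genes 2 were higher (2.35%, beside 2.16% of all tested genes) and 1 lower (1.18%, beside 4.27%), with a median of 0.15. The nucleolar protein nop16.L was lower, at 46.4, 43.1, 45.8 and 45.4 CPM in the B libraries and 85.8, 101, 79.4 and 95.0 CPM in the C libraries (log2 fold change -1.001 ± 0.12 (SE), edgeR adjusted p = 4.09e-05), with no overlap between the letters. The higher ones were the helicase ddx51.L (0.47 ± 0.13, edgeR adjusted p = 0.0319) and bop1.L, of large-subunit rRNA maturation (0.52 ± 0.14, edgeR adjusted p = 0.0321).

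Of 76 copies of glutathione, antioxidant and xenobiotic enzyme genes 11 were lower (14.5%) and 5 higher (6.58%), with a median of -0.23. Of all tested genes 4.27% were lower and 2.16% higher. Thioredoxin, txn.L, was at 4.82, 12.14, 5.24 and 6.66 CPM in the B libraries and 15.7, 28.3, 27.9 and 43.7 CPM in the C libraries (log2 fold change -2.06 ± 0.22 (SE), edgeR adjusted p = 3.36e-05). The catalytic subunit of the rate-limiting enzyme of glutathione synthesis, gclc, was lower in both copies (gclc.L -0.81 ± 0.12, edgeR adjusted p = 3.87e-04, gclc.S -1.15), and its modifier subunit gclm.L was at -0.56. Among peroxide-removing enzymes, gpx1.S was at -2.05, prdx1.L at -1.05, prdx1.S at -0.65 and gpx4.L at -0.59.

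Every B level of txn.L was below every C level. The retinoic acid hydroxylase cyp26c1.S was higher in B, at 73.6, 53.2, 79.8 and 85.7 CPM in the B libraries and 40.9, 29.99, 45.8 and 36.3 CPM in the C libraries (log2 fold change 0.92 ± 0.13 (SE), edgeR adjusted p = 1.51e-04). The other members higher in B were its copy cyp26c1.L (0.56), cyp27a1 (0.62), the retinal dehydrogenase aldh1a2.L (0.59) and glutathione reductase, gsr.L (0.96). In the untreated pairs alone 5 members were lower and 3 higher.

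Of 64 heat shock and chaperonin copies 5 were higher (7.81%, beside 2.16% of all tested genes) and 0 lower (median 0.12). The HSP110 gene hsph1.S was at 70.1, 50.001, 56.7 and 60.2 CPM in the B libraries and 55.7, 31.4, 32.7 and 33.0 CPM in the C libraries (log2 fold change 0.64 ± 0.13 (SE), edgeR adjusted p = 0.00551). It was followed by the mitochondrial chaperone hspa9.S (0.43 ± 0.12, edgeR adjusted p = 0.0347), the chaperonin subunit cct2.L (0.42 ± 0.12, edgeR adjusted p = 0.0353) and the HSP90 cochaperone fkbp4.S (0.49 ± 0.14, edgeR adjusted p = 0.0424). With any 1 pair left out 1 to 2 of them were called higher.

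Of 51 hypoxia response copies 8 were lower (15.7%, beside 4.27% of all tested genes) and 0 higher (median -0.10). The mitochondrial protein gene higd1a.L was at 95.4, 149, 134 and 140.2 CPM in the B libraries and 151, 214, 223 and 364 CPM in the C libraries (log2 fold change -0.84 ± 0.14 (SE), edgeR adjusted p = 0.00103). ankrd37, a HIF target, was lower in both copies (ankrd37.L -1.28 ± 0.20, edgeR adjusted p = 0.00262, ankrd37.S -1.01 ± 0.18, edgeR adjusted p = 0.00175). Another HIF target, fam162a.L, was at 1.45 to 2.26 CPM in B against 4.46 to 13.6 in C (-2.003 ± 0.29, edgeR adjusted p = 2.63e-04). Of 73 copies listed for the unfolded protein response and the integrated stress response, 6 were lower (8.22%) and 0 higher. They included the cystine transporter slc7a11.S (-0.94 ± 0.19, edgeR adjusted p = 0.00516), the serine synthesis enzyme psat1.S (-0.86 ± 0.19, edgeR adjusted p = 0.00918) and mthfd2.L, of mitochondrial one-carbon metabolism (-0.62 ± 0.15, edgeR adjusted p = 0.0183).

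Of 49 copies of p53 target and DNA damage genes 5 were lower (10.2%) and 1 higher (2.04%), beside 4.27% and 2.16% of all tested genes. Cyclin G1, ccng1.S, was at 60.7, 71.7, 60.4 and 52.3 CPM in the B libraries and 91.9, 129.7, 107 and 151 CPM in the C libraries (log2 fold change -0.96 ± 0.14 (SE), edgeR adjusted p = 3.65e-04). The ferroptosis suppressor aifm2.S was at 14.4 to 23.1 CPM in B against 29.1 to 55.2 in C (-1.003 ± 0.15, edgeR adjusted p = 4.19e-04). The apoptosis effector bax.L was higher (75.5 to 88.5 CPM in B against 47.7 to 67.3 in C, 0.52 ± 0.12, edgeR adjusted p = 0.0135). None of these 3 genes overlapped between the letters.

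In the cell cycle list 3 of 94 copies were higher (3.19%, beside 2.16% of all tested genes) and 1 lower (1.06%, beside 4.27%). The replicative helicase subunit mcm4 was higher in both copies (mcm4.S 0.79 ± 0.15, edgeR adjusted p = 0.00416, mcm4.L 0.55 ± 0.14, edgeR adjusted p = 0.0261). uhrf1.L, which couples replication to DNA methylation, was lower at 49.8, 33.2, 48.7 and 41.2 CPM in the B libraries and 71.9, 62.6, 71.2 and 71.4 CPM in the C libraries (log2 fold change -0.70 ± 0.12 (SE), edgeR adjusted p = 0.00178). The letters did not overlap in uhrf1.L, and its partner uhrf1.S had a log2 fold change of 0.30 ± 0.12, edgeR adjusted p = 0.136. In a separate list of 67 immediate early copies 2 were higher (2.99%) and 1 lower (1.49%), with a median of 0.03. The higher ones were the copies of serum response factor, srf.S at 0.58 ± 0.13, edgeR adjusted p = 0.0117 and srf.L at 0.57 ± 0.13, edgeR adjusted p = 0.0122. The lower one was rgs2.L (-0.52 ± 0.13, edgeR adjusted p = 0.0195).

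**Figure D4:**
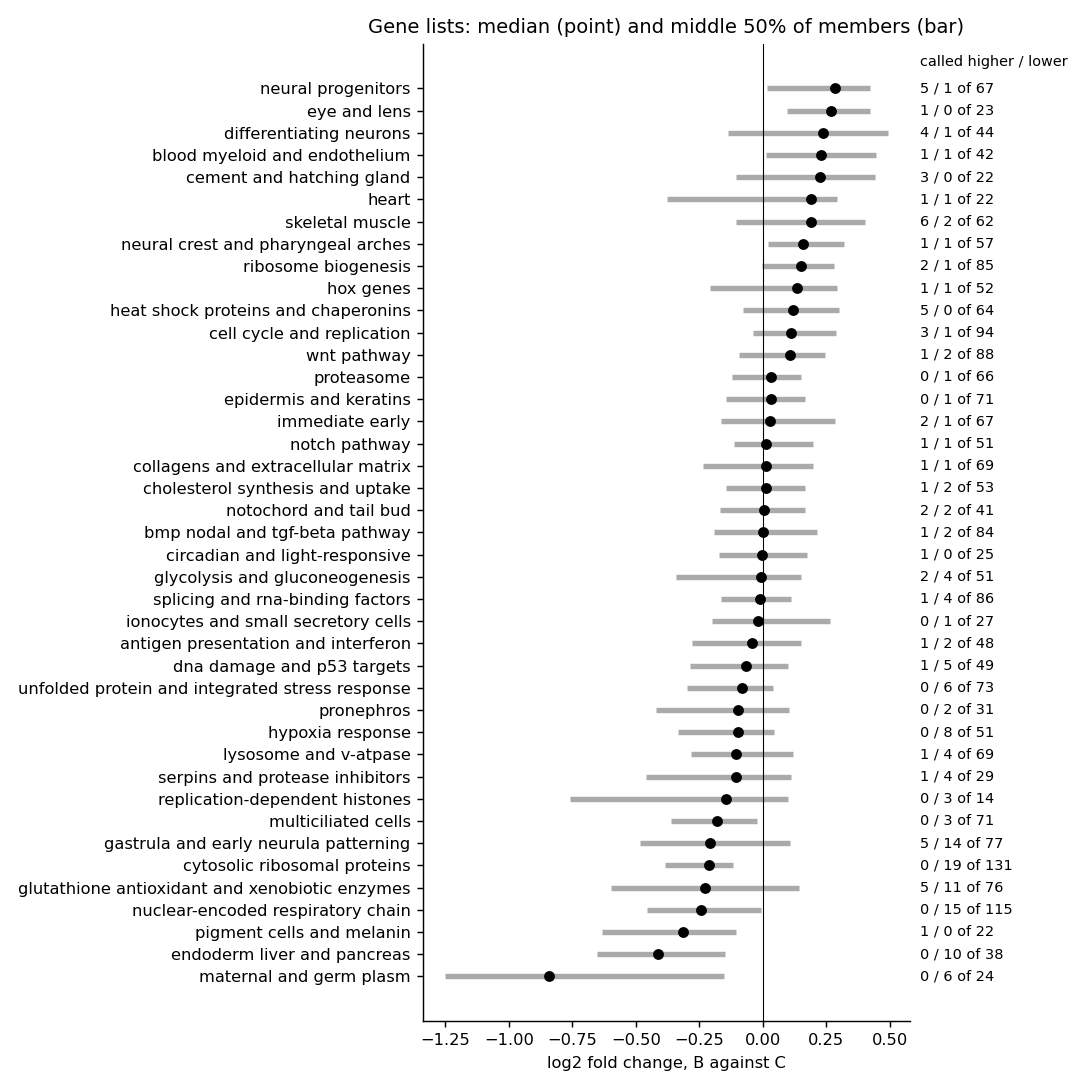
Median log2 fold change of B against C (points) and the middle 50% of members (bars) for the gene lists with at least 10 measured copies, with the counts called higher and lower at the right. The lists run from maternal and germ plasm genes at -0.84 to neural progenitors at 0.28.

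Short non-coding RNAs lay mostly below 0. Of 132 snoRNA, snRNA and guide RNA genes 35 were lower in B (26.5%) and 0 higher, and 128 lay below 0, with a median of -1.28. snRNAs are parts of the spliceosome, and snoRNAs and guide RNAs direct modification of rRNA and snRNA. By class, 13 of 78 snoRNAs, 17 of 44 snRNAs and 5 of 10 guide RNAs were called. Among these, the snRNAs LOC121400204, LOC121400205 and LOC121400206 and the snoRNA LOC121395822 reached the filter only with the C libraries. The filter itself favoured a difference in them, so these shares rest partly on it. Telomerase RNA, terc.S, was at 6.77, 18.8, 5.103 and 6.16 CPM in the B libraries and 12.31, 25.4, 15.5 and 19.5 CPM in the C libraries (log2 fold change -1.11 ± 0.21 (SE), edgeR adjusted p = 0.00357). Of 437 lncRNAs 79 were lower and 12 higher (median -0.43).

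The summed level of the 132 short RNAs was 3179, 7873, 3012 and 3042 CPM in the B libraries, 4628, 10750, 7163 and 10930 CPM in the C libraries and 3838, 4115, 4584 and 4381 CPM in the A libraries. It moved with the library total as well as with the letter, since the 4 libraries with the lowest totals, which were 3 C libraries and the B library of untreated groups of 100, held the 4 highest sums. Of the 132 genes, 84 had all 4 of these low-total libraries above the other 4 (63.6%), beside 9.32% of all tested genes. The part of the library total in this difference was not tested. The medians of the pairs were -0.52, -0.34, -1.65 and -2.20. In the untreated pairs alone 27 of these genes were lower and 5 higher.

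**Figure D5:**
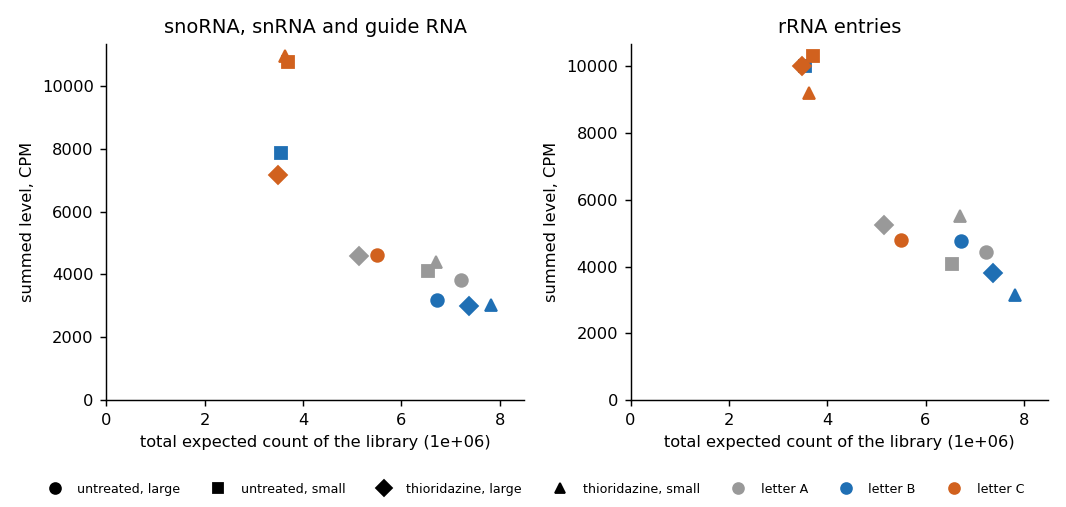
Summed level in CPM (y axis, from 0) of snoRNA, snRNA and guide RNA genes (left) and of genes annotated as rRNA (right) against the total expected count of the library (x axis, in units of 1e+06), each point 1 of 12 libraries, with letters as colours and groups as symbols. The 4 libraries with the lowest totals have the highest sums in both panels, at 7163 to 10930 CPM on the left.

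Protein-coding genes were divided by the length of their span. Of the 4221 genes in the quintile with the shortest spans (up to 8.74 kb) 7.58% were lower in B and 1.73% higher, with a median of -0.09. In the quintile with the longest spans (from 56.1 kb) these shares were 1.97% and 2.18%, with a median of 0.04. In the untreated pairs 113 of the shortest genes were lower and 49 higher, against 267 and 35 in the thioridazine pairs. Protein-coding genes made up 803 of the 928 genes lower in B and 453 of the 470 higher.

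Whether the difference between letters depended on the group was tested with interaction terms. For thioridazine, 35 genes passed (0.161%), all with a more negative B against C difference in the thioridazine pairs, and 32 of them were snoRNA, snRNA, guide RNA or rRNA genes. The snoRNA LOC121402303 was at 29.5, 260.1, 18.3 and 29.2 CPM in the B libraries and 33.5, 205, 107 and 223 CPM in the C libraries (difference of log2 fold changes -2.88 ± 0.24, SE, edgeR adjusted p = 1.50e-04). LOC121401750, another snoRNA, was at 124, 723, 56.0 and 144 CPM in the B libraries and 199, 870.1, 468 and 1027 CPM in the C libraries (-2.49 ± 0.23, edgeR adjusted p = 1.83e-04). In both, the levels were high in untreated groups of 100 under either letter and in the thioridazine C libraries, which are the 4 libraries with low totals. In 29 of the 32 all 4 low-total libraries lay above the other 4, and with protein-coding genes alone in the fit 0 genes passed in edgeR.

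For group size, 4 genes passed (0.0184%): the snoRNAs LOC121400836 and LOC121402302, the lncRNA LOC121394264 and ddx25.L, a germ cell RNA helicase. ddx25.L was at 23.8, 34.1, 35.6 and 18.23 CPM in the B libraries and 23.2, 85.1, 30.9 and 74.1 CPM in the C libraries (1.79 ± 0.28, SE, edgeR adjusted p = 0.0227), so that C was above B in both groups of 100 and at or below B in both groups of 300. The other 3 had libraries at 0. LOC121400836 had 0, 44, 0 and 48 counts in B and 36, 52, 36 and 36 in C, so the B libraries of groups of 300 were at 0. LOC121394264 had 31, 29, 32 and 30 counts in B and 25, 0, 18 and 0 in C, so the C libraries of groups of 100 were at 0. Before adjustment, 1494 genes for thioridazine and 1410 for group size were under 0.05, where 1087 would be expected.

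Taking the letters into account also changed what could be detected between treatments in these 8 libraries. Thioridazine against untreated embryos gave 28 genes without a term for the letter (0.129%) and 72 with the replicate block (0.331%), 68 higher and 4 lower under thioridazine, and all 28 were among the 72. Named genes called in both fits included ldlr.L, the LDL receptor (log2 fold change 2.17 with the block), the early response gene nr4a1.L (1.75), junb.L of the AP-1 family (1.22) and cyp2j2.L, a cytochrome P450 (2.31), which were chosen after their values were seen. None of these 4 was called between B and C. Of the 72 genes, however, 21 were called between B and C, where 6.43% of all tested genes were. Without the untreated 100 pair, 2 genes passed in place of 28.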

How the data were processed

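RNA of 15 pooled whole embryos a library was rRNA-depleted and sequenced with 75-nucleotide single-end reads. The authors trimmed the reads, removed rRNA with Bowtie2, aligned with STAR and deposited RSEM expected counts per gene, together with a log2 CPM table made with TMM and voom. The sources used here give no tool versions, no genome build for STAR and no strand setting. Columns of the authors' own comparisons were not used.

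Expected counts were rounded, filtered at 1.8 CPM in at least 3 of 12 libraries (21731 of 42638 genes kept) and normalized by TMM. The 8 libraries lettered B and C were tested with edgeR 4.0.16 (quasi-likelihood, robust, two-sided, Benjamini-Hochberg threshold 0.05) in R 4.3.3, with terms for group and letter. Standard errors were derived from the F statistic of each fold change. Interaction terms tested dependence on thioridazine and on group size, and thioridazine was tested with and without the letter as a replicate block. Alternatives were DESeq2 1.42.0, limma 3.58.1 (voom, and trend on the deposited log2 values), RLE factors, no filter, a filter of 10 CPM, all 12 libraries, 1 pair left out and no group term. Added after seeing the data were the untreated or the thioridazine pairs alone, libraries thinned to 3497196 counts and protein-coding genes alone. The test was checked on simulated data.

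RefSeq names, RNA classes, spans and gene order (Xenopus_laevis_v10.1) matched 93.9% of identifiers, and spans are of that annotation. After subtraction of group means over letters A, B and C, A libraries correlated with each other at 0.536 to 0.769. B libraries did so at 0.282 to 0.619 and C libraries at 0.429 to 0.643. A shift of the A libraries alone enters these means, so these values cannot show that B and C differ. The B minus C differences across all genes correlated between groups at 0.258 to 0.427. No library was a duplicate of another. Named genes were the 10 with the smallest p and the 10 with the largest fold in each direction among genes with a symbol, up to 2 without a symbol, up to 4 members of each gene list, and up to 5 for each interaction, all past the threshold, and some genes that met this rule are not reported here. Members of lists given with a fold change alone, partner copies, genes at 0 in 1 letter, opposite copies and terc.S were chosen after their values were seen. The libraries and the gene lists were chosen with earlier results of these data known. Of 43 lists, those with at least 10 measured copies are plotted, the list of sex-linked genes had 4 copies and 0 calls, and the list of mitochondrially encoded genes had 0 measured. Groups of 100 and 300 are the sizes the paper gives for small and large groups.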

Additional observations from a re-analysis of the deposited data

Results flagged for a closer look

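The B against C difference itself differed between groups by an interaction test in edgeR for 35 genes with thioridazine and 4 with group size. Given here are the 5 with the smallest p for thioridazine and all 4 for group size, 9 genes. With thioridazine, the difference of log2 fold changes (thioridazine pairs less untreated pairs) was -2.88 for LOC121402303, -3.44 for LOC121402301, -2.49 for LOC121401750 and -2.35 for LOC121402304, all snoRNAs. Of these, LOC121402301 was at 6.92, 69.1, 2.01 and 5.78 CPM in the B libraries and 12.49, 79.4, 26.7 and 87.6 CPM in the C libraries, and LOC121402304 at 64.7, 306, 32.5 and 80.3 CPM in the B libraries and 42.1, 227, 135 and 241 CPM in the C libraries. The fitted value of -18.23 for LOC121401714, an rRNA gene, is no bound, since it had 0, 1446, 1 and 5 counts in B and 0, 0, 48 and 77 in C and rests on the 1 library with 1446 counts.

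With group size, the difference of log2 fold changes (groups of 300 against groups of 100, as fitted) was -8.004 for the snoRNA LOC121400836, -8.13 for the lncRNA LOC121394264, 6.95 for the snoRNA LOC121402302 and 1.79 for ddx25.L. LOC121402302 had 6, 0, 17 and 0 counts in B and 188, 330, 152 and 223 in C. The fitted values of the first 3 depend on libraries at 0 and are no bounds. Library total moves with the thioridazine term, since both thioridazine C libraries were the smaller of their pair. With libraries thinned to equal totals 31 genes passed for thioridazine, all with a negative difference. Thinning evens only the number of counts, and what else goes with library total was not tested.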

How the results depend on the processing

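The 1398 genes between B and C became 700 with DESeq2, 2419 without the filter, 530 when all 12 libraries were fitted, 361 without the group term and 589 in the untreated pairs alone, and ranged from 560 to 1545 with 1 pair left out. DESeq2 shared 666 of its calls with the 1398, in the same direction. The 35 genes for thioridazine became 159 without the filter, 11 with limma trend, 3 with all 12 libraries and 0 with protein-coding genes alone (1388 at an unadjusted p under 0.05 in edgeR), and ranged from 17 to 381 with 1 pair left out. The 4 genes for group size became 1 with DESeq2, 66 without the filter, and 0 with limma voom (1350 at an unadjusted p under 0.05), with all 12 libraries (1406) and with protein-coding genes alone (1426), and ranged from 20 to 48 with 1 pair left out. The 28 genes for thioridazine against untreated became 72 with the replicate block, 45 with DESeq2 and 123 without the filter, and ranged from 2 to 18 with 1 pair left out. The other count alternatives stayed within 1.5 times.

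Of 2424 values of 156 named genes under alternatives, 1814 stayed past the threshold, 610 did not and 0 changed sign. The 43 genes that stayed past it under every alternative that gave a value included alpl.S, pgr.L, thop1.L, elk4.S, nmral1.S, zc3h7b.S, tf.L and txn.L. Leaving out the thioridazine 100 pair took 67 named genes past the threshold of B against C to the other side, and the untreated pairs alone took 75. With the libraries thinned to equal totals 16 fell short. Counts under about 3 a library, as in the C libraries for pgr.L, limit the precision of the largest folds.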
